A study of Homo sapiens with 6 samples.

Results

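Chromatin accessibility was described around 36 genes that are known targets of the transcription factor ATF4 in the amino acid and integrated stress response. The genes were listed by name and not chosen by their own peaks, but the list was made with earlier results of these data known. All 36 were found among the 20033 protein-coding genes of the annotation. The cells were MM.1S, an established multiple myeloma line, which is a cancer of antibody-secreting plasma cells. Each of 3 CB-6644 libraries came from cells given 120 nM of that compound for 72 h, and each of 3 control libraries came from cells given DMSO, its solvent. The compound blocks the ATPase of the paired proteins RUVBL1 and RUVBL2, which sit in several chromatin remodelling complexes. Per the study's methods, live cells were sorted at the end of the treatment, so cells that had died were not profiled. In Omni-ATAC a transposase cuts into open chromatin, and the authors' deposited files list the places where cuts piled up, as 1 list of peaks for each library.

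When amino acids run short or unfolded proteins build up, kinases phosphorylate the initiation factor eIF2 alpha, most translation slows and the mRNA of ATF4 is translated more. ATF4 pairs with CEBP proteins and binds a composite DNA site, the amino acid response element, near genes that make, import and charge amino acids. Plasma cells make large amounts of secreted protein, and this response is well known in them and in myeloma.

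A region is a stretch of merged peaks from the 6 lists. A region was called DMSO-only when all 3 DMSO libraries and no CB-6644 library had a peak in it, and CB-6644-only in the reverse case. A gene's window was its body and 50 kb on each side, and a promoter region lay within 1000 bp of any of its transcription start sites (TSSs). The member windows held 287 regions, of which 170 were called in all 6 libraries, 16 were DMSO-only, 2 were CB-6644-only and 99 had another pattern. A region without a peak in a list was not detected there, which does not show that it was closed.

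The sequences of the ATF4-CEBP consensus TGATGNAA at the regions that the results turn on are shown first, because 6 of the 16 DMSO-only regions held it within 100 bp of the summit. They were read from the hg38 reference genome on the strand given, and capitals mark the match. In the DMSO-only regions the matches lay at chr1:28249561-28249628 on the plus strand (upstream of SESN2), at chr20:402070-402137 on the minus strand (downstream of TRIB3) and, for SLC7A5, at chr16:87806922-87806989 on the minus strand and chr16:87806987-87807054 on the plus strand, which is 1 region with 2 matches. The others were at chr1:109214967-109215034 on the plus strand (near the SARS1 start), at chr14:100375595-100375624 on the minus strand (at the WARS1 start) and at chr12:57455047-57455114 on the minus strand (in the MARS1 window).
SESN2: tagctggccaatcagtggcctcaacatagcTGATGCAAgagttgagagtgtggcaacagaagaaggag
TRIB3 downstream: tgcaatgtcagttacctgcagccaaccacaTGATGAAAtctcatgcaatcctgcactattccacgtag
SLC7A5 first match: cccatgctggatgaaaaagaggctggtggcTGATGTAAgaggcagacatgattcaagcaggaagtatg
SLC7A5 second match: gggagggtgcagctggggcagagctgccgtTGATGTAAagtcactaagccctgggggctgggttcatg
SARS1: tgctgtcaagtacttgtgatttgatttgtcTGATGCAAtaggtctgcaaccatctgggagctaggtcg
WARS1: tgaggggtggcTGATGCAAtgaccagctaa
MARS1 window: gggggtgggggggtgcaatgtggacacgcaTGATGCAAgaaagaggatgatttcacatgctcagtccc

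Promoter regions called in all 6 libraries also held the consensus. Those that passed a test of height on fold or pile-up, as described below, are shown next, with that of ASNS for comparison. They lay at chr20:362570-362637 on the plus strand (an alternative TRIB3 start), at chr15:40953251-40953280 on the minus strand (CHAC1), at chr19:46784893-46784922 on the minus strand (an alternative SLC1A5 start) and at chr7:97872458-97872487 on the minus strand (ASNS). The TRIB3 region passed on both fold and pile-up, CHAC1 on fold but not pile-up, and SLC1A5 on pile-up but not fold.
TRIB3 alternative start: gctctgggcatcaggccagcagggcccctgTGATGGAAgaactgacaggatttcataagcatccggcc
CHAC1: cctggcaggagTGATGCAAcggcaggggag
SLC1A5 alternative start: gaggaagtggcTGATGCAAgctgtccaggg
ASNS: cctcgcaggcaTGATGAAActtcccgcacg

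The lists held 58563 to 71781 peaks with CB-6644 and 65569 to 79020 with DMSO. They give no read totals and no background, so depth was gauged from the lowest background that could be recovered from fold and -log10 p. Divided by the length of the shortest peak, it was 3.20 to 7.05 tags per kb with CB-6644 and 6.40 to 9.08 with DMSO. CB-6644 replicate 2 had the lowest background, and it and DMSO replicate 1 had shortest peaks of 65 and 91 bp, against 131 bp or more in the other 4 libraries. The latter are called long-fragment libraries below, and this split is the fragment-length set. Both names rest on the shortest peak alone, as the lists and labels give no fragment length. The member windows held 209, 276 and 221 peaks in CB-6644 replicates 1, 2 and 3 and 286, 257 and 231 in DMSO replicates 1, 2 and 3, and the 2 groups overlapped. The plasma cell label was checked on 9 marker genes, of which 8 had a promoter region in all 6 libraries, and 5 of 13 markers of other cell types had no promoter peak in any library.

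Promoters of the amino acid and stress genes were open in both groups. A promoter region was called in all 6 libraries for 33 of the 36 members, against 66.3% of all protein-coding genes. NUPR1, a stress-induced chromatin protein, had no promoter peak in any library, and neither had CBS, the first enzyme of transsulfuration. CBS has a near-identical copy in hg38, so its value is uncertain. STC2, a secreted glycoprotein, had a promoter peak only in CB-6644 replicate 3 (8.08-fold over local background) and DMSO replicate 1 (7.58-fold). The member windows had a median of 8.5 regions, and those of all protein-coding genes had 7.

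**Figure D1:**
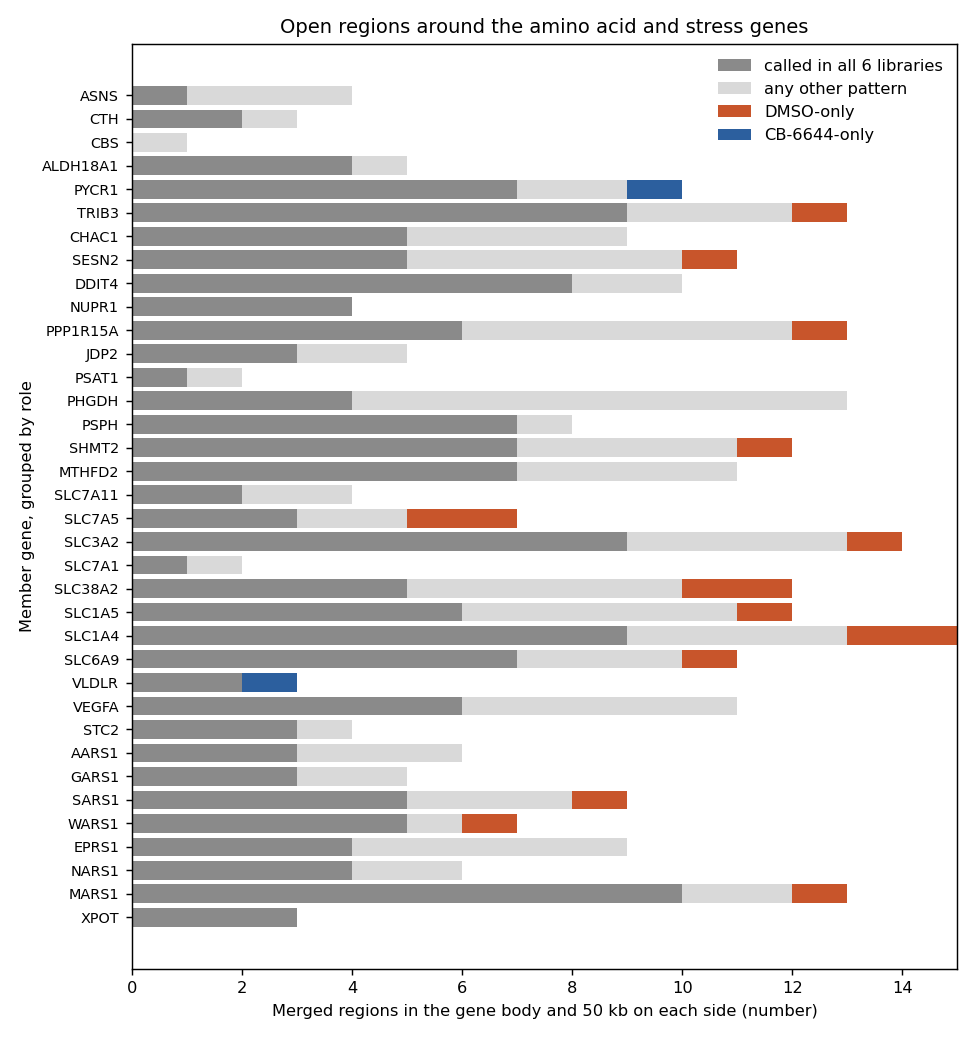
Number of merged regions in the window of each of the 36 members (gene body and 50 kb on each side), in bars stacked by class: called in all 6 libraries, any other pattern, DMSO-only and CB-6644-only. DMSO-only regions lie around 13 members, with 2 each at SLC7A5, SLC38A2 and SLC1A4.

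Sites detected only without the inhibitor lay around 13 members, and sites detected only with it around 2. At least 1 DMSO-only region was found for 36.1% of the members (13 of 36), against 19.8% of all protein-coding genes. Among genes with a promoter region in all 6 libraries the shares were 39.4% of 33 members and 22.1% of 13290 genes. Counted by region, 5.57% of the 287 regions in the windows were DMSO-only (16), against 4.5% of all 89196 regions, so the share of regions was close to that of the genome while the share of genes was higher. CB-6644-only regions lay in the windows of VLDLR and PYCR1, which is 5.56% of members against 4.29% of all genes, and 0.697% of regions against 0.586%. The remaining 21 members had neither kind. With the same number of top peaks taken from each list, 11 DMSO-only regions in 9 members and 4 CB-6644-only regions were counted. Over all regions that setting gave 1857 DMSO-only and 1063 CB-6644-only of 75619, where the main setting gave 4016 and 523 of 89196. With the 20000 strongest peaks of each list, 4 DMSO-only regions in 4 members and 1 CB-6644-only region were counted. Over all regions these were 733 DMSO-only and 561 CB-6644-only of 26302. The excess of DMSO-only over CB-6644-only regions was thus smaller in the genome too when list sizes were equal. The background read from the CB-6644 lists was lower at the median than that of the DMSO lists, and its part in these counts was not tested.

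By role, the amino acid transporters held 9 of the 16 DMSO-only regions, in 6 of 8 members and among 77 regions of any class. The aminoacyl-tRNA synthetases with the tRNA exporter XPOT held 3 in 3 of 8 members, and the stress regulators 3 in 3 of 7. The serine, glycine and one-carbon enzymes held 1 in 1 of 5 members, and the other synthesis enzymes and the secreted factors and receptors held none. Of the 16 regions, 14 lay outside the members' own promoters, and a member's TSS was the nearest protein-coding one for 11. At the other 5 the nearest start belonged to another gene, so a place in the window does not assign the region to the member. Of these 5, the regions in the SHMT2, SLC6A9 and MARS1 windows lay over the other gene's start.

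Heights of group-only regions are given as fold over local background in each list, and as percentiles of -log10 p within the list, where 100 is the strongest peak. SESN2 encodes sestrin 2, a leucine sensor that restrains mTORC1. Its DMSO-only region (chr1:28249466-28249753) lay 9.93 kb upstream of the main TSS, with folds of 8.18, 6.54 and 5.54 in DMSO replicates 1, 2 and 3 and percentiles of 67.6, 66.0 and 59.7. TRIB3 encodes a pseudokinase that feeds back on ATF4. The region 21.3 kb downstream of its main TSS (chr20:402012-402454) had folds of 19.4, 13.9 and 12.1 and percentiles of 63.0, 52.4 and 46.0, and the nearest start was that of RBCK1, 5.04 kb away. Both sites ranked near or above the middle of all 3 DMSO lists and held the ATF4-CEBP consensus, and no CB-6644 list had a peak there. PPP1R15A encodes the phosphatase subunit that reverses eIF2 alpha phosphorylation. Its region (chr19:48876424-48876708), 4.18 kb downstream, was low, with folds of 3.26, 2.57 and 3.16 and percentiles of 11.1, 8.45 and 19.9.

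SLC7A5 and SLC3A2 encode the chains of a carrier that imports leucine and other large neutral amino acids. SLC7A5 had a DMSO-only region 62.6 kb downstream of its main TSS (chr16:87806756-87807195), with folds of 9.69, 6.88 and 7.28 and percentiles of 54.4, 43.4 and 47.9, and this region held 2 matches to the consensus. A second lay 2.18 kb upstream (chr16:87871548-87871818), with folds of 12.2, 9.57 and 9.95 and percentiles of 45.5, 38.1 and 40.3 and no match. The SLC3A2 region, 30.2 kb upstream (chr11:62850463-62850733), was lower, with folds of 6.93, 5.52 and 4.49 and percentiles of 21.2, 20.4 and 13.6.

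The transporters of alanine, serine, cysteine, glutamine and glycine had mostly weak sites. SLC38A2 imports small neutral amino acids. Its regions lay 15.6 kb downstream (chr12:46356801-46357350, folds 6.93, 5.72 and 6.24) and 31.7 kb upstream (chr12:46404269-46404741, folds 7.44, 6.66 and 6.55), and no percentile was above 20.9. The former was not DMSO-only when windows around summits were merged in place of peaks. SLC1A5, the glutamine carrier, had an intronic region 11 kb from the main TSS (chr19:46777474-46777775) with folds of 8.03, 5.95 and 5.37 and percentiles of 11.9, 4.77 and 3.32. Its relative SLC1A4 had 1 weak region 9.57 kb upstream (chr2:64979736-64979966), with folds of 8.37, 5.73 and 7.73 and percentiles of 17.0, 3.64 and 13.99. The other SLC1A4 region was of middle height, 60.1 kb downstream and nearest to the CEP68 start (chr2:65049344-65049661), with folds of 11.96, 10.3 and 7.72 and percentiles of 62.6, 62.3 and 44.6. The SLC6A9 region, in the window of this glycine carrier, lay over the start of B4GALT2 (chr1:43979829-43980108) with folds of 5.89, 4.19 and 2.98 and percentiles of 21.0, 8.27 and 0.969. The transporter genes therefore held the most DMSO-only regions, and the stronger ones lay at SLC7A5 and beyond SLC1A4.

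Among the synthetases, which load amino acids onto tRNAs, SARS1 had a DMSO-only region in an exon 1.09 kb from its main TSS (chr1:109214860-109215071). The folds were 15.3, 14.5 and 9.86 and the percentiles 59.1, 60.5 and 42.8. WARS1 had one over an exon and UTR (chr14:100375339-100375721), which reached over its main TSS with its summit 0.245 kb upstream. The folds were 6.29, 6.36 and 5.81 and the percentiles 35.8, 39.3 and 33.6. These were the 2 DMSO-only regions at member promoters, and each gene had another promoter region that was called in all 6 libraries. The strongest DMSO-only region of all 16 was in the MARS1 window but over the start of INHBE, the gene of an activin subunit (chr12:57454547-57455517), with folds of 12.2, 9.37 and 8.92 and percentiles of 81.8, 79.7 and 80.2. It was the only one of the 16 that was still DMSO-only among the 20000 strongest peaks of each list. All 3 of these regions held the consensus.

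The DMSO-only region in the window of SHMT2, the mitochondrial serine hydroxymethyltransferase, lay over the start of NDUFA4L2 (chr12:57240119-57240717). Its folds were 5.15, 4.21 and 2.91 and its percentiles 47.4, 43.5 and 18.02.

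The reverse pattern was seen at VLDLR, a lipoprotein receptor, and in the window of PYCR1, a proline synthesis enzyme. The VLDLR region, 34.0 kb downstream of the main TSS in an exon and UTR (chr9:2655761-2655927), had folds of 15.2, 11.6 and 13.6 in CB-6644 replicates 1, 2 and 3 and percentiles of 37.5, 40.9 and 30. The PYCR1 window region (chr17:81924871-81925077), nearest to the MAFG start, had folds of 5.04, 9.23 and 5.45 and percentiles of 20.8, 48.8 and 29.5. No DMSO list had a peak in either, and neither held the consensus.

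**Figure D2:**
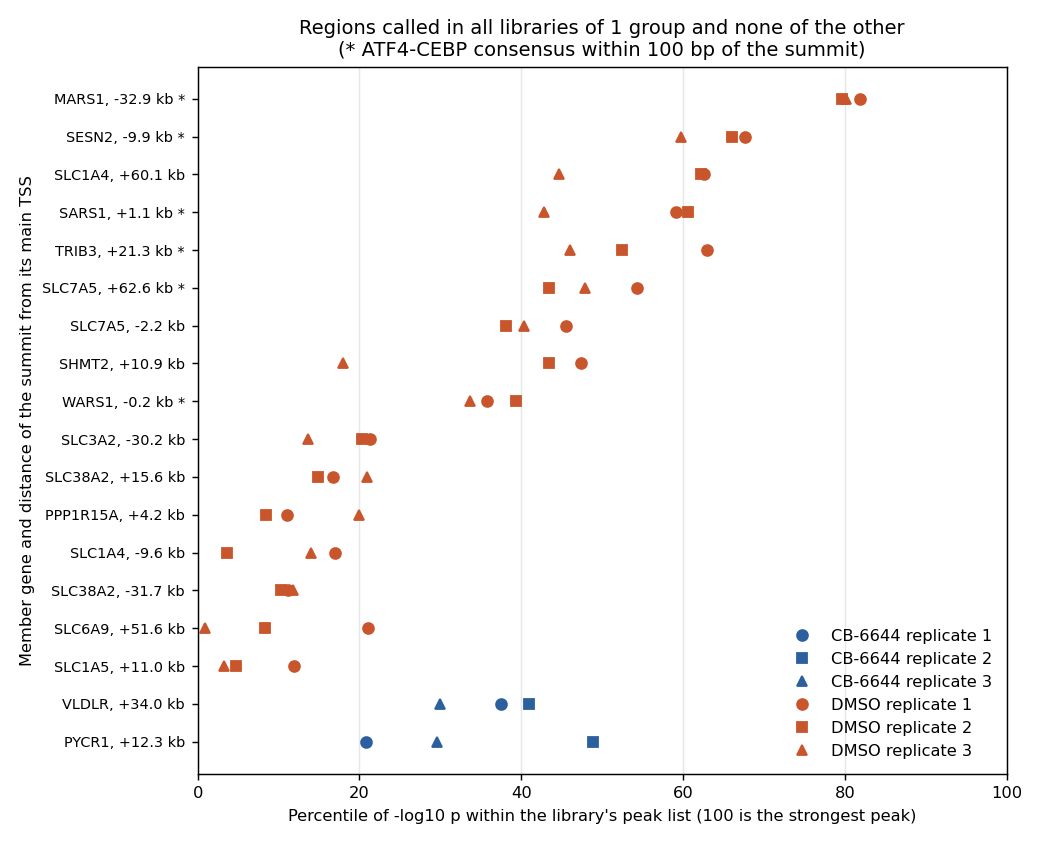
Percentile of -log10 p within each library's own peak list (0 to 100) for the 16 DMSO-only and 2 CB-6644-only regions in the member windows, 1 point for each library that called the region, with an asterisk where the ATF4-CEBP consensus lies within 100 bp of the summit. The regions with the consensus fill 5 of the 6 highest positions, and the MARS1 window region lies near 80 in all 3 DMSO libraries.

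In the member windows, the DMSO-only regions with the consensus were mostly stronger peaks than those without it. This split was not made over all 4016 DMSO-only regions, so it cannot be called particular to these genes. The 6 with a match had a median mean percentile of 54.0 (36.2 to 80.6), and the 10 without had 15.3 (6.65 to 56.5). The sets overlapped, since the SLC1A4 region at 60.1 kb, the SLC7A5 region at 2.18 kb and the SHMT2 window region ranked above the WARS1 region. With equal numbers of top peaks, 6 of the 6 with a match and 3 of the 10 without were still DMSO-only. Over the 16 regions the median was 36.3, against 24.2 for all 4016 DMSO-only regions.

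The consensus TGATGNAA was looked for on either strand, up to 100 bp from each region's strongest summit, and a match describes the letters only. It was present in 37.5% of the members' DMSO-only regions (6 of 16; 95% Wilson interval 18.5 to 61.4%), against 12.7% of all 4016. It was present in 9.41% of their regions called in all 6 libraries (16 of 170; 5.88 to 14.7%), against 2.53% of all 42089. In regions of another pattern it was present in 3.03% (3 of 99; 1.04 to 8.53%), against 4.61%. The intervals for DMSO-only regions and for those called in all 6 libraries lay above the share in the genome, and the interval for the rest included it. The intervals cover counting error only and take each region as independent, so they are no test against the genome. Known ATF4 targets were listed partly because such sites are known near them. A high share at their promoters or elsewhere in their windows is therefore no independent result.

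At promoters, 11 of 44 member promoter regions called in all 6 libraries held it (25%; 14.6 to 39.4%), against 1.10% of 14596. These were at ASNS, TRIB3, CHAC1, SLC1A5, SLC1A4, SLC6A9, GARS1, NARS1, MARS1, VEGFA and PYCR1. In promoter windows from RefSeq on hg38 (250 bases before to 50 after the start), 30 of the 36 members were matched by symbol and 11 held it (36.7%; 21.9 to 54.5%), against 3.64% of 15345 promoters. In this fixed window the matches were at ASNS, CHAC1, SLC3A2, SLC7A1, SLC1A5, SLC1A4, AARS1, GARS1, NARS1, MARS1 and JDP2. ASNS (asparagine synthetase), CHAC1, SLC1A5, SLC1A4, GARS1, NARS1 and MARS1 were in both sets.

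**Figure D3:**
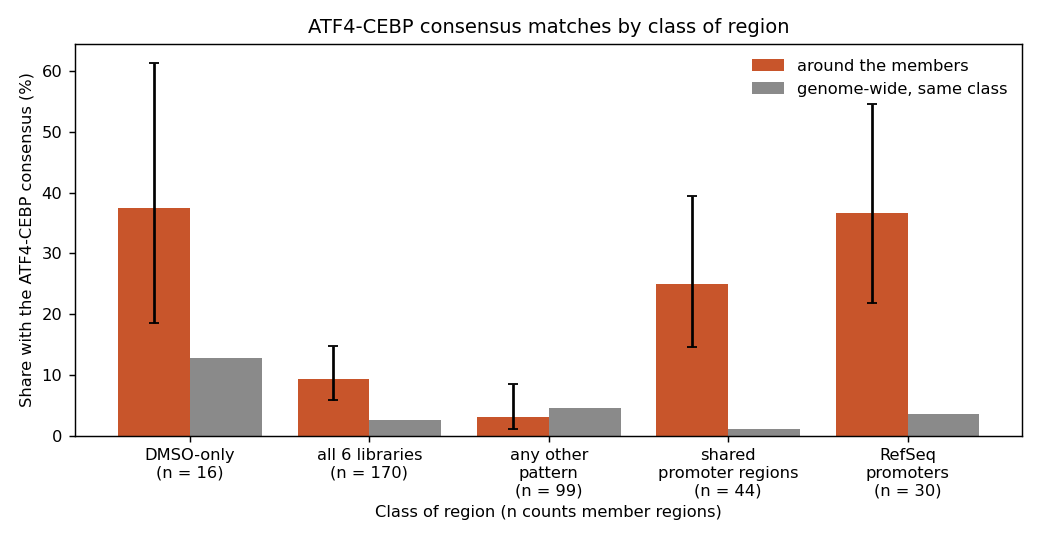
Share of regions with the ATF4-CEBP consensus (percent) around the members, with 95% Wilson intervals as error bars, and in all regions of the same class in the genome. The first 3 pairs are classes of regions, and the last 2 pairs are shared promoter regions and fixed RefSeq promoter windows. The members' bars are above the genome's in every class but "any other pattern".

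Height was compared at the regions called in all 6 libraries, with limma on the log2 fold over local background, fitted over all 42089 such regions after quantile normalisation and with Benjamini-Hochberg adjustment. Of the 170 in member windows, 1 was lower after CB-6644 and 2 were higher, against 0.418% and 0.321% of all shared regions. Of the 44 at member promoters 1 was lower and 1 higher, against 0.0617% and 0.0754%. The 3 were at TRIB3, CHAC1 and PHGDH.

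The TRIB3 region lay at an alternative TSS 18.1 kb upstream of the main one, over an exon and UTR (chr20:362425-362838), and held the consensus shown above. Its folds were 16.0, 16.4 and 13.4 in CB-6644 replicates 1, 2 and 3 and 35.98, 25.9 and 25.8 in DMSO replicates 1, 2 and 3. Every CB-6644 library was below every DMSO library. The log2 difference was -0.85 (SE 0.14; limma, adjusted p = 0.035).

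PHGDH, the first enzyme of serine synthesis, had a higher intronic region 20.3 kb from its main TSS (chr1:119732004-119732721), which was 1.58 kb from another annotated start of the gene. Its folds were 19.6, 30.2 and 19.8 with CB-6644 and 15.2, 9.59 and 7.63 with DMSO. The groups did not overlap, and the log2 difference was 1.20 (SE 0.21; limma, adjusted p = 0.040). At the main PHGDH promoter, 20.3 kb away, the order was the opposite, with folds of 11.8, 14.6 and 13.6 with CB-6644 and 23.4, 21.1 and 18.6 with DMSO. That difference was -0.54 (SE 0.16; limma, adjusted p = 0.14) and did not pass the threshold.

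CHAC1 degrades glutathione and is strongly induced by ATF4. Its promoter region (chr15:40952767-40953754) had folds of 26.7, 34.7 and 28.0 with CB-6644 and 23.5, 19.97 and 19.2 with DMSO, without overlap. The log2 difference was 0.59 (SE 0.10; limma, adjusted p = 0.040). Its direction depended on the measure, as its pile-up went the other way (-0.23, SE 0.14; limma on pile-up, adjusted p = 0.37). Each of these 3 calls was lost when any library but CB-6644 replicate 2 was left out.

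**Figure D4:**
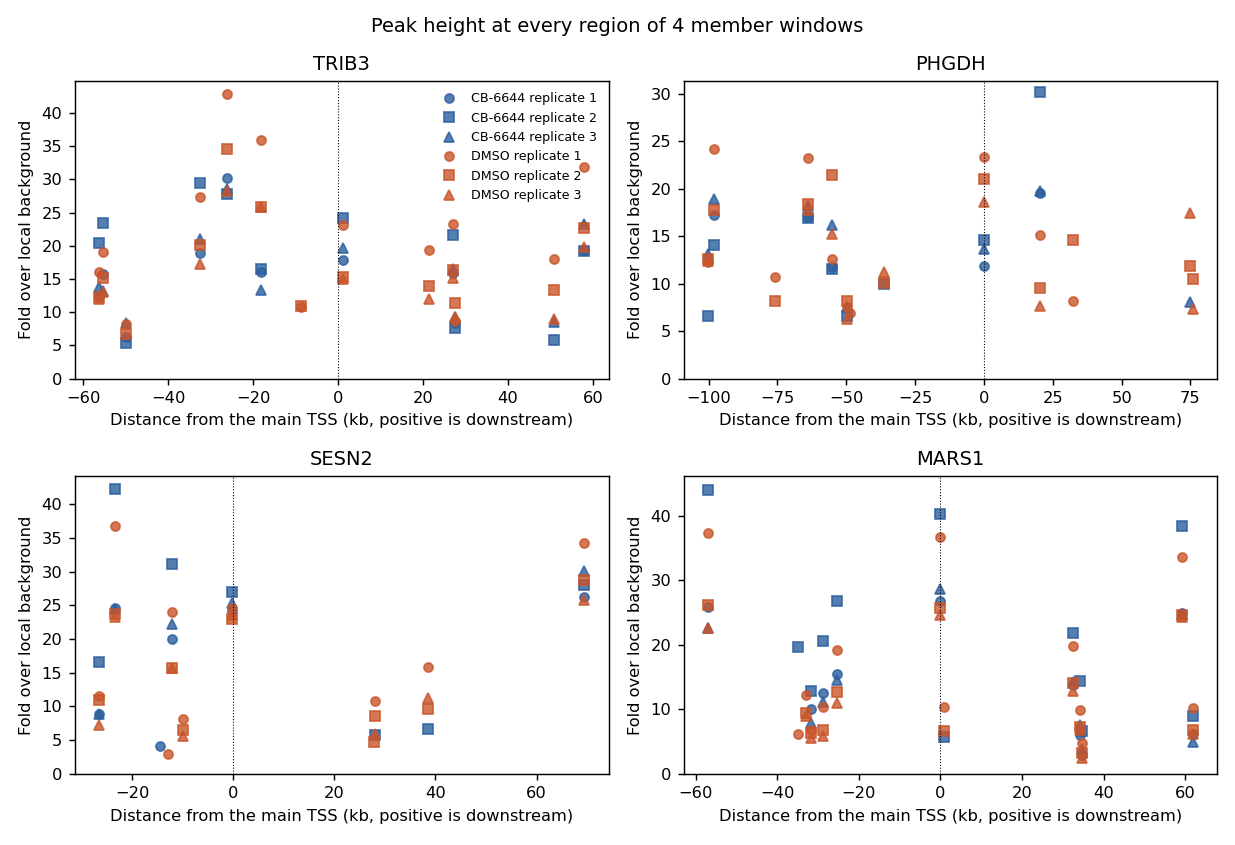
Fold over local background of the strongest peak of every region in the windows of TRIB3, PHGDH, SESN2 and MARS1, against the distance of the region's summit from the main TSS (kb), with 1 point for each library that called it (circle, square and triangle for replicates 1, 2 and 3). At TRIB3 -18.1 kb the CB-6644 points lie at 13.4 to 16.4 and the DMSO points at 25.8 to 35.98, and at PHGDH 20.3 kb the order is reversed.

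The fold sets a summit against the background around it, so a summit can lose cuts and keep its fold. The number of fragments piled up at each summit was therefore recovered from the deposited fold and -log10 p and fitted in the same way. On that scale 12 of the 170 shared regions in the windows were lower (7.06%, against 5.4% of all shared regions) and 4 were higher (2.35%, against 4.7%). At member promoters 8 of 44 were lower (18.2%, against 1.75% of all shared promoter regions) and 0 were higher (against 1.47%). The log2 differences of the 44 promoters had a median of -0.11, with 33 below 0, against 0.02 over all shared promoters. On the fold scale the median was 0.17, with 34 above 0, against 0.084, so the direction of most member promoters flipped with the measure. The 8 promoter regions were named after their values were seen. Leaving out each library in turn gave counts of 6 to 8, and the long-fragment libraries alone gave 10. At an unadjusted p below 0.05, 10 of the 44 were lower and 0 higher on pile-up, and 3 were lower and 6 higher on fold. Of all 42089 shared regions, at promoters or not, 9957 were below that p on pile-up and 6081 on fold, in either direction.

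The promoters with a lower pile-up belonged to TRIB3, to 4 serine and one-carbon enzymes and to SLC1A5. The alternative TRIB3 start had summit pile-ups of 29, 22 and 30 with CB-6644 and 163, 188 and 178 with DMSO, against library medians of 44, 22 and 52 and of 37, 56 and 56. Its normalised log2 difference was -2.10 (SE 0.23; limma on pile-up, adjusted p = 0.0012). The main TRIB3 promoter moved less, by -0.53 (SE 0.12, adjusted p = 0.023), while its fold difference of 0.34 was positive and did not pass.

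The serine pathway makes serine from a glycolytic intermediate and passes its carbon to folate. PHGDH at its main promoter had pile-ups of 23, 21 and 34 with CB-6644 and 65, 96 and 82 with DMSO (log2 difference -1.02, SE 0.26; limma on pile-up, adjusted p = 0.033). PSAT1, the next enzyme, had pile-ups of 245, 154 and 288 against 444, 503 and 496 (-0.56, SE 0.10, adjusted p = 0.0069). PSPH, which completes the pathway, did not pass the test at its main promoter, where the pile-up difference was 0.02 (SE 0.10; limma on pile-up, adjusted p = 0.92).

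SHMT2 moves the carbon unit from serine to folate in mitochondria. Its promoter had pile-ups of 49, 27 and 70 with CB-6644 and 126, 176 and 171 with DMSO (-1.12, SE 0.16; limma on pile-up, adjusted p = 0.0028). MTHFD2, the next mitochondrial folate enzyme, was lower at alternative starts 7.20 and 7.91 kb downstream of the main one, by -1.26 (SE 0.17, adjusted p = 0.0025) and -1.10 (SE 0.14, adjusted p = 0.0019). Its main promoter did not pass on either scale, with a pile-up difference of -0.08 (SE 0.10, adjusted p = 0.72) and a fold difference of 0.31 (SE 0.15, adjusted p = 0.38; both limma). All 4 enzymes had lower CB-6644 than DMSO pile-ups in every pair of libraries at these sites, but these pile-ups were not scaled between libraries. The same order held at the main SLC1A5 promoter (188, 136 and 252 against 287, 354 and 307). That promoter did not pass (limma on pile-up, adjusted p = 0.40), so the order alone does not mark a called difference. CB-6644 replicate 2 had the lowest pile-up at each site of the 4 enzymes and also the lowest background. The same 8 promoter regions were lower when it was left out.

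SLC1A5 was lower at an alternative start 3.67 kb into the gene (chr19:46784571-46785152), which held the consensus. Its pile-ups were 112, 51 and 118 with CB-6644 and 247, 337 and 325 with DMSO (-1.14, SE 0.13; limma on pile-up, adjusted p = 0.0012). Its folds of 7.91, 9.84 and 6.25 with CB-6644 were also below those of 14.95, 11.4 and 10.8 with DMSO. The main SLC1A5 promoter and a region 2.04 kb into the gene did not pass on either scale, with pile-up differences of -0.17 (SE 0.11) and -0.02 (SE 0.19) and fold differences of 0.43 and 0.45.

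**Figure D5:**
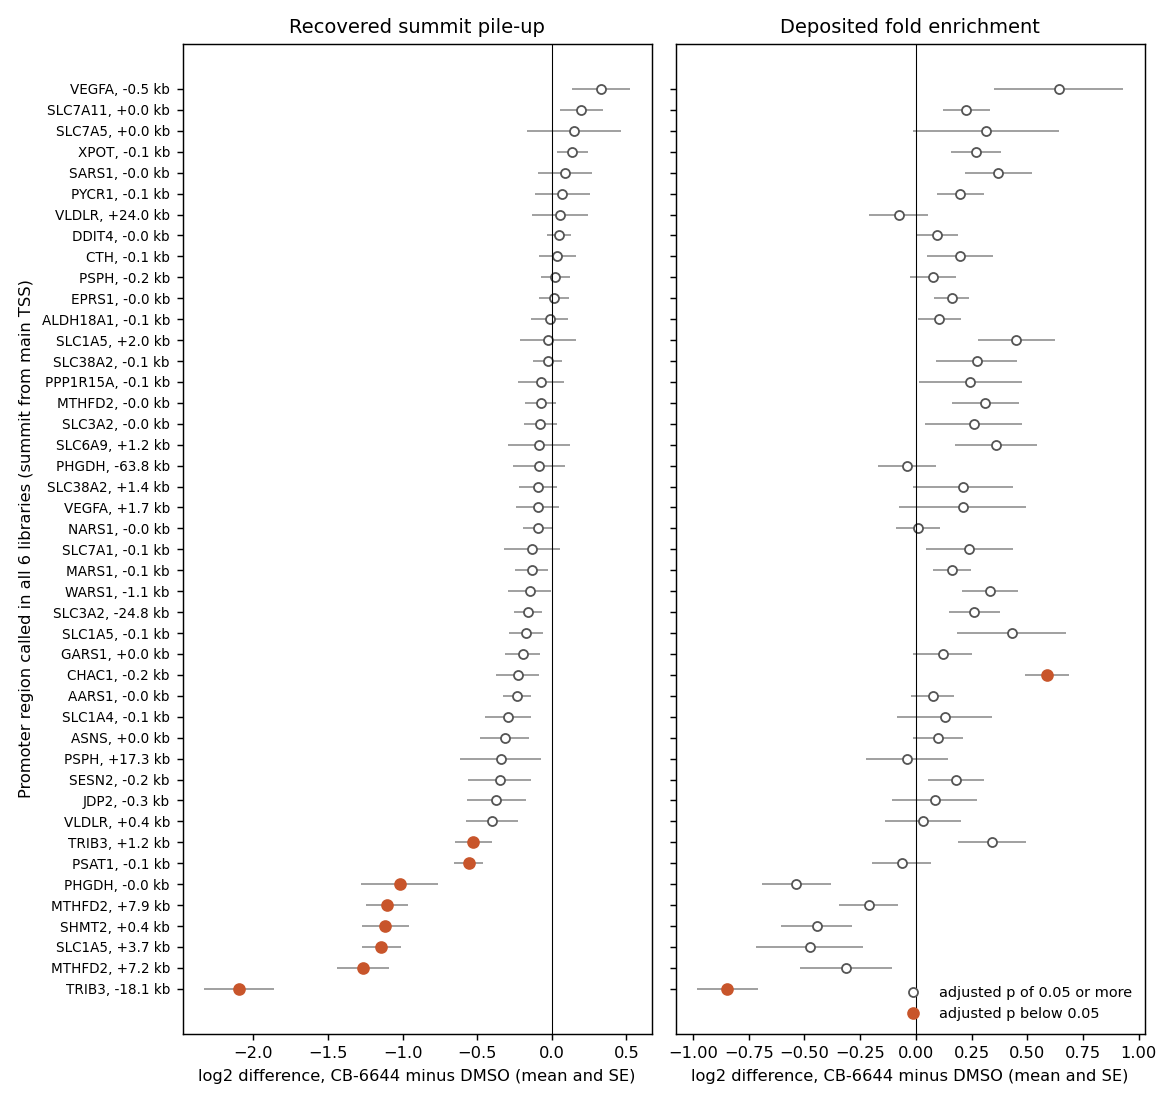
Log2 difference (CB-6644 minus DMSO, with SE) at the 44 member promoter regions called in all 6 libraries, on the recovered summit pile-up (left) and the deposited fold (right), ordered by the former and labelled with the distance of the summit from the main TSS. Filled points pass adjusted p of 0.05 in limma. On pile-up 8 regions pass, all lower, and on fold the alternative TRIB3 start is lower and CHAC1 higher.

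Another measure was the percentile of -log10 p among the shared regions, which shares its p-values with the pile-up. All 3 CB-6644 percentiles lay below all 3 DMSO percentiles at 24 of the 170 window regions (14.1%, against 13.4%) and above them at 13 (7.65%, against 13.3%). At promoters 11 of 44 lay below (25%, against 8.44%) and 1 above (2.27%, against 7.87%). The 11 were the 8 promoter regions above and those of AARS1, NARS1 and JDP2. The 1 above was VEGFA, the angiogenic factor, which also had the largest fold difference at a promoter that was not called. Its folds were 8.08, 13.9 and 7.24 with CB-6644 and 6.37, 6.52 and 6.48 with DMSO, and the log2 difference of 0.64 (SE 0.29; limma, adjusted p = 0.35) did not pass the threshold. The difference was 0.34 without CB-6644 replicate 2.

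Taking the strongest promoter region of each of the 33 members, the median log2 fold difference was 0.18, with 28 above 0 and 5 below 0. ASNS stood near the middle, with folds of 22.6, 25.1 and 21.3 with CB-6644 and 25.5, 21.6 and 21.4 with DMSO, and the groups overlapped (0.10, SE 0.11; limma, adjusted p = 0.71). The medians by role ran from -0.04 for the serine and one-carbon enzymes to 0.28 for the secreted factors and receptors. The former is the PHGDH value at its strongest promoter region, an alternative start 63.8 kb upstream of the main TSS. That region also lay over the start of ZNF697, and the main PHGDH promoter had a difference of -0.54.

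Of the 66 shared regions in the windows that lay outside any protein-coding promoter, the pile-up was lower at 4 and higher at 4 (6.06% each, against 7.34% lower and 6.41% higher of all such regions), so these shares were near those of the genome. The lower ones were in the windows of PSPH, SHMT2 (2 regions) and DDIT4, the gene of an mTORC1 inhibitor, whose region 47.0 kb downstream held the consensus. DDIT4 pile-ups there were 100, 74 and 106 with CB-6644 and 194, 252 and 250 with DMSO (-0.68, SE 0.17; limma on pile-up, adjusted p = 0.026). On fold, the DDIT4 region and both SHMT2 window regions had differences above 0, of 0.14, 0.43 and 0.52, and none passed the test. The higher ones were the PHGDH intron and regions at SLC3A2, SLC38A2 and EPRS1. The PHGDH intron had pile-ups of 59, 53 and 67 with CB-6644 and 23, 20 and 16 with DMSO (2.23, SE 0.30; limma on pile-up, adjusted p = 0.0023), so its direction was the same on both scales. The SLC38A2 region 31.2 kb upstream was higher by 0.99 (SE 0.20, adjusted p = 0.013) and lay beside the weak DMSO-only region of that window.

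The promoters of ATF4 and its partners did not pass the test on fold, and their pile-up differences are not given here. ATF4 had promoter folds of 17.6, 28.6 and 16.9 with CB-6644 and 21.4, 17.8 and 13.7 with DMSO (log2 difference 0.31, SE 0.17; limma, adjusted p = 0.46). The differences were 0.01 (SE 0.23, adjusted p = 0.99) for CEBPB, 0.24 (SE 0.13, adjusted p = 0.43) for CEBPG and 0.19 (SE 0.20, adjusted p = 0.69) for DDIT3, which encode those partners. Of 13 integrated stress response factors, these included, 3 had a DMSO-only region (23.1%, against 19.8% of all genes) and 1 a CB-6644-only region (7.69%, against 4.29%). Of the 72 shared regions in their windows, limma on fold called 0 in either direction (1 lower and 4 higher at an unadjusted p below 0.05, against 8.09% and 6.35% of all shared regions). Limma on pile-up called 1 lower and 1 higher (1.39% each, against 5.4% and 4.7%).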

How the data were processed

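Omni-ATAC peaks of 6 MM.1S libraries were analysed, grouped by the treatment in the labels. Per the submitters' processing notes, the authors used Bowtie2 2.4.2 and MACS3 3.0 on hg38, with peaks called for each library separately. In the deposited lists the fold is the ratio of summit pile-up to local background, the -log10 p and -log10 q values are those of the peak caller, the score is 10 times the -log10 q, and a further column gives the summit's distance from the peak start. None of these values was scaled between libraries by the authors. The study's own test, edgeR on read counts, needs counts that these lists do not hold.

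Peaks on 24 chromosomes sharing 1 bp or more were merged, regions were kept where at least 1 list called them, and genes were taken from GENCODE release 44. Scripts used Python 3.11.15 and R 4.3.3. Log2 folds at the strongest peak of each region called in all 6 lists were quantile-normalised and fitted with limma 3.58.1 (empirical Bayes with trend), with the Benjamini-Hochberg threshold at 0.05 over all such regions and no pseudocount. The fit was tested on simulated data. Pile-ups were solved from fold and -log10 p under a Poisson model with 1 added to pile-up and background, and 100% of peaks matched that model in every list. No read totals are given, so depth was gauged only from the background recovered in this way. Shares carry 95% Wilson intervals, which cover counting error only.

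The members, lists and tests were chosen with earlier results of these data known. Named with values in every library were members with a group-only region or a shared region past the threshold, and those with the largest and smallest promoter difference. Counts of percentiles that do not overlap, and other settings of the pile-up fit, were added after seeing the data. The labels do not say that replicates were separate cultures, so the p-values measure only the spread between these libraries. The lists are those of other cytosolic and mitochondrial aminoacyl-tRNA synthetases, integrated stress response factors, other folate and one-carbon enzymes, plasma cell markers and markers of other cell types. Alternatives covered peak thresholds, window widths, merging, normalisation, the measure of height, library sets, a replicate block and leaving out each library.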

Additional observations from a re-analysis of the deposited data

How the results depend on the processing

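A promoter peak in all 6 libraries was found for 33 members, and for 24 with the 20000 top peaks. DMSO-only regions numbered 16 in 13 members. They numbered 4 in 4 members with the 20000 top peaks, 3 in 3 members in the gene body only, 26 in 18 members when 2 of 3 libraries sufficed, and 11 to 24 in 9 to 16 members under the other alternatives. CB-6644-only regions numbered 4 in 4 members with equal numbers of top peaks, with only long-fragment libraries and with 2 of 3 libraries, and 1 in 1 member with the 20000 top peaks and in the gene body only. Over the whole genome, DMSO-only and CB-6644-only regions numbered 7251 and 1566 of 78691 with only long-fragment libraries. They numbered 8070 and 1589 of 89196 with 2 of 3 libraries. The limma calls on fold were less stable. In the windows, 1 lower and 2 higher regions became 0 and 0 with median centring, 12 and 4 on recovered pile-up, 7 and 4 on the percentile of -log10 p, 4 and 14 with the fragment-length set as a term, and 3 and 8 with only long-fragment libraries. Leaving out 1 library gave 0 to 4 in either direction. At promoters, 1 lower and 1 higher became 0 and 0, 8 and 0, 7 and 0, 2 and 3, and 2 and 3 in the same order, and 0 to 3 and 0 to 1 without 1 library. The cause was not tested. Over all shared regions, main calls of 176 lower and 135 higher became 0 and 0 with median centring and 2274 and 1978 on pile-up. The CHAC1 promoter reversed on pile-up (-0.23) and on the percentile of -log10 p (-0.082 on the logit scale). The TRIB3 and PHGDH regions kept their direction under every alternative tried, but lost the call with median centring (adjusted p = 0.072 for both in limma). The consensus share of shared regions was 3.53% within 50 bp of the summit, where that of all shared regions was 1.18%.

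With the replicate number as a block, 0 regions were called in either direction in the windows and at promoters on fold, with adjusted p of 0.11 to 0.12 for the 3 called regions, and 7 member promoters were lower on pile-up. The correlations of same-numbered deviations were -0.48, -0.33 and 0.33, and the largest of any pair was 0.57. That pair was CB-6644 replicate 2 and DMSO replicate 1, the libraries with the shortest peaks. With 3 libraries in each group, these values cannot decide whether the numbers pair the libraries. Read totals are unknown, so a peak missing from a list with low background is only a peak not detected.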

Other observations

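Around genes of the same machinery that were not among the 36, promoters were open in both groups as well. All 13 other cytosolic aminoacyl-tRNA synthetases and all 17 mitochondrial ones had a promoter region in all 6 libraries, as had 9 of 10 other folate and one-carbon enzymes. DMSO-only regions lay in the windows of 3 cytosolic synthetases, of 3 mitochondrial ones (FARS2, LARS2 and RARS2) and of 1 folate enzyme, MTHFD2L, the relative of MTHFD2, which had 2. These are 23.1%, 17.6% and 10% of the genes, against 19.8% of all protein-coding genes. A CB-6644-only region lay in the window of PARS2. Limma on fold called 0 regions in either direction in these windows. At an unadjusted p below 0.05 it gave 2 lower and 6 higher of 68 shared regions around the cytosolic synthetases. It gave 4 and 3 of 79 around the mitochondrial ones and 2 and 2 of 41 around the folate enzymes. The shares over all shared regions were 8.09% lower and 6.35% higher. Limma on pile-up called 2 lower and 4 higher, 0 and 2, and 1 and 1, which is 0 to 2.94% lower and 2.44 to 5.88% higher, against 5.4% and 4.7% of all shared regions. The genes named here were chosen after their values were seen.

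Among 9 plasma cell markers, 4 had a DMSO-only region (44.4%, against 19.8% of all genes) and 3 a CB-6644-only region (33.3%, against 4.29%). Limma on fold called 0 of 71 shared regions in their windows. At an unadjusted p below 0.05 it gave 3 lower and 8 higher, against 8.09% and 6.35% of all shared regions. Limma on pile-up called 8 lower and 1 higher (11.3% and 1.41%, against 5.4% and 4.7%). Among 13 markers of other cell types, 5 had a DMSO-only region (38.5%) and none a CB-6644-only one, and limma on fold called 1 lower and 0 higher of 51 (8 and 2 at an unadjusted p below 0.05), with 6 and 2 on pile-up (11.8% and 3.92%).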
